A study of Mus musculus with 18 samples.

Results

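The MEK inhibitor GDC-0623 given without anti-CD40 was compared with vehicle in MC38 tumours, using the 5 arrays labelled MEKi and the 5 labelled Ctrl, which make up 10 of the 18 arrays of the series. MC38 is a mouse colon carcinoma cell line. Cells were injected with PBS and Matrigel under the flank skin of C57BL/6-Ly5.1 mice aged 6 to 12 weeks. MEKi tumours came from mice dosed daily with 30 mg/kg GDC-0623 for about 2 weeks together with a control antibody, and control tumours from mice given the vehicle MCT and the same control antibody. The antibody was given intraperitoneally on treatment days 3, 5 and 7 and 1 day before the tumours were taken, on day 22 after inoculation. The other 8 arrays were from tumours treated with anti-CD40 and vehicle (anti-CD40, 4 tumours) or with anti-CD40 and GDC-0623 (MEKi/CD40, 4 tumours). The model is limited to a single cell line growing outside the colon, in whole tumour pieces taken at a single time.

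MEK1 and MEK2 are the kinases that switch on ERK in the RAS–RAF–MEK–ERK cascade, which carries growth factor signals to the nucleus. Active ERK drives entry into the cell cycle and switches on its own brakes, among them the phosphatase Dusp6 and the Sprouty proteins. The cascade also runs in fibroblasts, macrophages and lymphocytes, so a systemic inhibitor reaches tumour and host cells alike.

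Each array was 1 tumour hybridised to an Affymetrix Mouse430_2 chip, and a value is the log2 signal of a probe set, where a step of 1 is a 2-fold difference in signal. Values below 3 were treated as background. A group mean is followed by its SD (n = 5) and a log2 change, MEKi minus control, by its standard error in limma, with p-values adjusted by Benjamini and Hochberg over all 45037 probe sets. As these are bulk samples, fewer cells of a type and less RNA per cell cannot be told apart. Colon epithelium was not visible as such. Of 22 measured epithelial junction and keratin genes, 4 had a mean of at least 4 over the arrays (Spint1, Tjp1, Jup and Cdh1), while Epcam averaged 2.18 in control and 2.28 in MEKi tumours and Krt8, Krt18, Cldn7 and Vil1 lay at 2.16 in both. Arrays of the same group correlated at 0.996 to 0.998 (control) and 0.995 to 0.998 (MEKi), and arrays of different groups at 0.988 to 0.996.

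MEKi changed matrix, hypoxia, cell cycle, lipid and macrophage genes. At an adjusted p under 0.05 a total of 3525 probe sets differed, 7.83% of those tested, of which 1799 rose and 1726 fell, 375 and 282 of them at least 2-fold. Counted by gene, 5.93% of 18193 genes were higher and 5.03% lower, and among the 10429 genes with a mean of at least 4 the shares were 10.2% and 8.71%. The median change over all genes was 0.00. Groups that did not overlap were found for 21.4% of the 10429 genes. The count of 3525 probe sets depended on single tumours. It was 1944, 1970, 1819 and 2249 without control 1, 2, 3 and 4, and 1679, 2183 and 2314 without MEKi 1, 2 and 3. The numbers in the sample titles fall into a lower range (tumours 1 and 2 of each group) and a higher range (tumours 3 to 5), whose meaning the labels do not give. With this split as a block 2732 probe sets were called. The calls were chosen on the same arrays, so their direction within each range is no separate support.

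**Figure D1:**
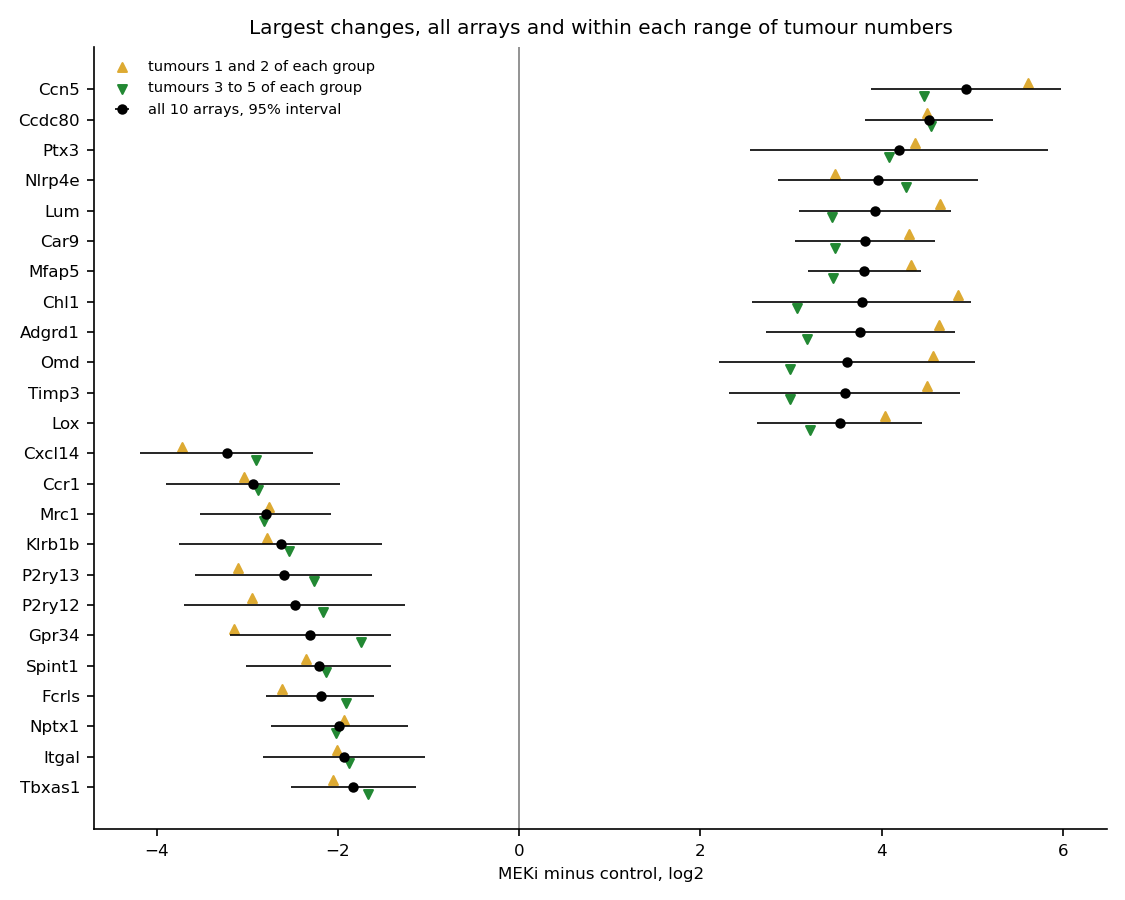
MEKi minus control on the log2 scale (horizontal axis) for the 12 largest rises and 12 largest falls among called genes whose groups did not overlap (vertical axis). Black points are the fits on 10 arrays with 95% intervals and triangles the differences within each range of tumour numbers, for example 3.82 for Car9 over all arrays against 4.30 and 3.49 within the ranges. Ccn5, Ptx3, Nlrp4e and Adgrd1 had controls at background, so their rises are lower limits and their places in the order are not settled.

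What happened to the direct readouts of ERK? Most of them did not pass the test. In the list of ERK feedback phosphatases and Sprouty genes 1 of 13 measured genes was higher and none lower (7.69% against a background of 5.93%), with a median change of -0.09. Dusp6, the phosphatase that removes the activating phosphates from ERK, read 12.81, 12.79, 12.69, 12.39 and 12.59 in control tumours and 12.28, 12.53, 11.97, 12.73 and 12.54 in MEKi tumours. The groups overlapped, with MEKi 2, 4 and 5 inside the control range and MEKi 3 lowest. Its change was -0.24 ± 0.15 (95% interval -0.58 to 0.10, adjusted p = 0.455). In a model that also held the mean signal of 14 adipocyte genes as a covariate, described with the matrix genes, it was -0.76 (adjusted p = 0.00864).

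Spry2, an inhibitor of receptor tyrosine kinase signalling, moved the other way. Control tumours read 8.72, 8.90, 8.76, 8.50 and 8.48 and MEKi tumours 9.13, 9.61, 9.56, 9.25 and 9.20, with no overlap. Spry2 rose by 0.68 ± 0.12 (adjusted p = 0.0177), a call lost with all 18 arrays in 1 model (adjusted p = 0.0945) and beside the adipocyte covariate (adjusted p = 0.0615). Of 24 measured ERK transcription targets 3 were higher and 1 lower, with a median of 0.04. These are 12.5% and 4.17%, against 5.93% and 5.03% of all genes and 10.2% and 8.71% at a mean of at least 4. The list as a whole therefore stood little apart from the background. Etv5, an ETS factor of the PEA3 group that ERK switches on, fell by 0.73 ± 0.16 (adjusted p = 0.0329), while the AP-1 subunit Fosl2 rose by 0.93 ± 0.13 (adjusted p = 0.00917) and the kinase Dclk1 by 1.24 ± 0.25 (adjusted p = 0.0229). The early response gene Egr1 (0.08 ± 0.33), Myc (-0.01 ± 0.12) and the G1 cyclin Ccnd1 (-0.11 ± 0.07) did not pass. Etv5 lost its call without any 1 control tumour or without MEKi 1 or 2 (highest adjusted p = 0.0735), in the 18-array model (0.0800) and with an intensity trend (0.0608), and Dclk1 without control 3 or 4 or MEKi 1 or 3 (highest adjusted p = 0.0606). The 3 higher calls among the targets became 1 without control 3 or MEKi 1.

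By limma none of the 14 measured RAS, RAF, MEK and ERK genes was called (1 had an unadjusted p under 0.05), among them both targets of the drug, Map2k1 (0.06 ± 0.05) and Map2k2 (-0.03 ± 0.05), whose transcripts are no measure of kinase activity. Of 32 measured receptor tyrosine kinases and ligands 5 were higher and 2 lower (15.6% and 6.25%, against 5.93% and 5.03% of all genes). Igf1, insulin-like growth factor 1, read 5.42, 3.24, 3.75, 4.21 and 3.25 in control and 6.88, 7.35, 7.16, 7.20 and 6.72 in MEKi tumours. The groups did not overlap and Igf1 rose 8.50-fold (3.09 ± 0.41, adjusted p = 0.00705). Nrg1, the neuregulin that binds ErbB3 and ErbB4, rose by 1.34 ± 0.22 (adjusted p = 0.0122), while the receptors Met (-0.77 ± 0.13, adjusted p = 0.0153) and Axl (-0.46 ± 0.08, adjusted p = 0.0127) fell. The 5 calls on the higher side became 2 without control 1 and 3 without control 2 or 3 or MEKi 1, 2 or 3.

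**Figure D2:**
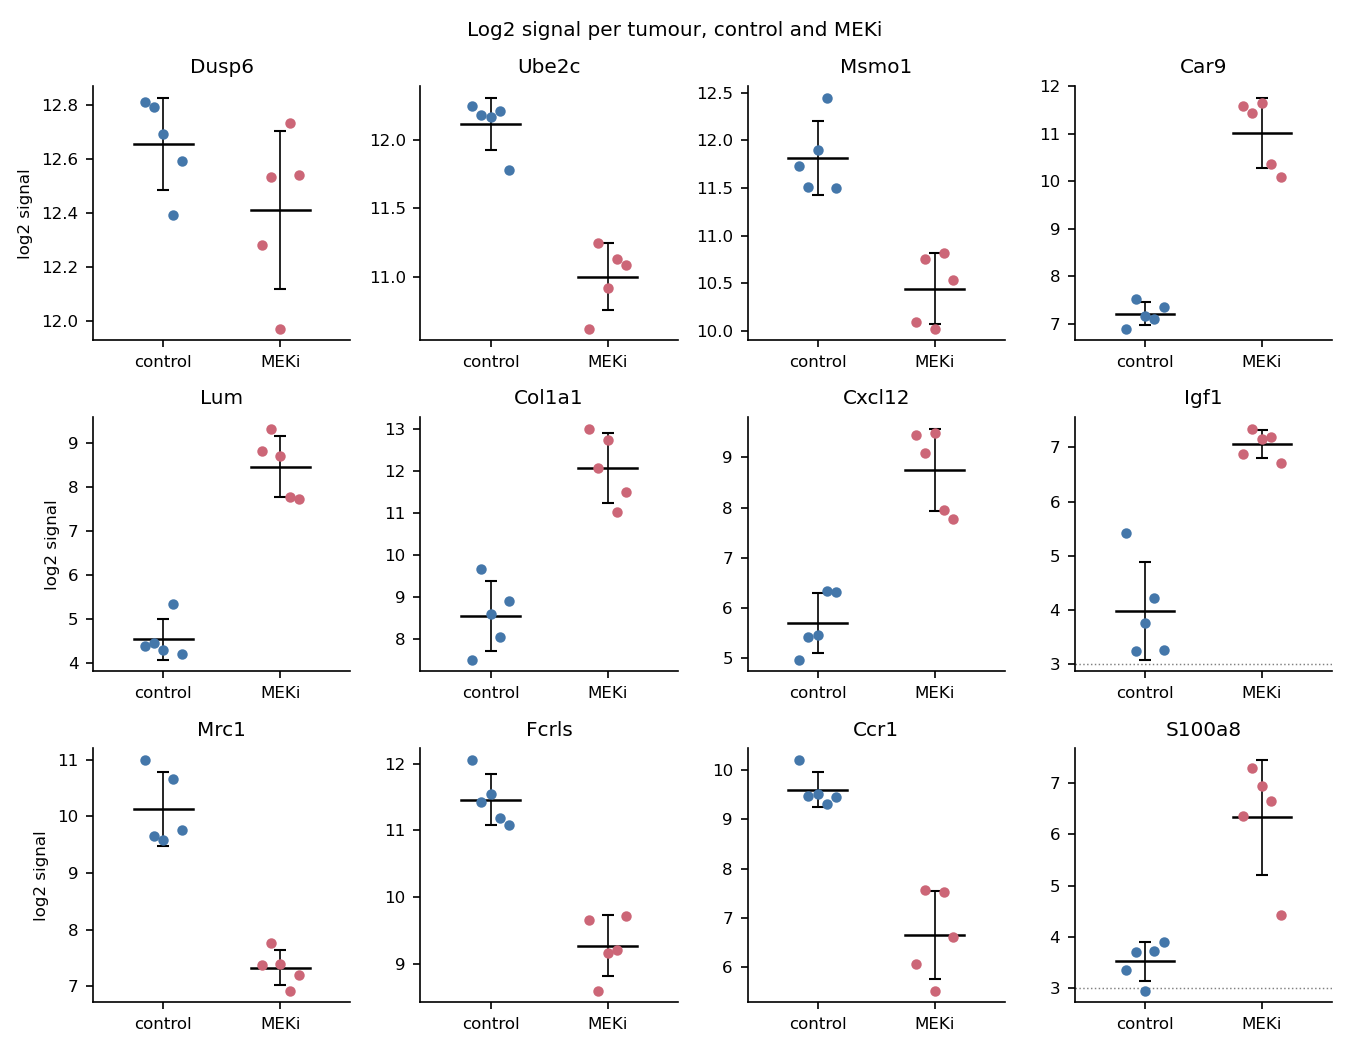
Log2 signal (vertical axes) of 12 genes in control and MEKi tumours (horizontal axes). Each point is a tumour, with the group mean as a mark and its SD as a bar, and the dotted line is the background at 3. The groups overlapped for Dusp6 alone among these 12 genes, and Mrc1 lay between 6.92 and 7.76 in MEKi tumours against 9.58 to 11.00 in control.

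Proliferation genes fell together. Of 34 measured mitosis and G2/M genes 33 fell and none rose (median -0.84), against 5.03% of all genes and 8.71% of genes with a mean of at least 4, and 24 of 35 G1/S and DNA replication genes fell (median -0.59). Ube2c, the ubiquitin-conjugating enzyme that works with the anaphase-promoting complex, and many genes of its list carry CCAAT boxes before their start sites, the element bound by NF-Y. The 250 bases before the RefSeq start of Ube2c (GRCm38.p6, chr2:164769679-164769928, plus strand) are shown to let these be read, with each CCAAT, or ATTGG where it lies on the opposite strand, in capitals.

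Ube2c: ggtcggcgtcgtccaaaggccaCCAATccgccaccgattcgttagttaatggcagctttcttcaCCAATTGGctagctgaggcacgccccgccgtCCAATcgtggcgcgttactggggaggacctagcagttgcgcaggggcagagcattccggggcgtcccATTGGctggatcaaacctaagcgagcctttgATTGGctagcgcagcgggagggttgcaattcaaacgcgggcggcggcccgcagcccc

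The window held 6 matches, 3 on each strand, with 1 pair overlapping. Of 28 mitosis and G2/M genes with a promoter in the reference set, 21 (75.0%) held CCAAT on either strand in this window, against 34.5% of all 27025 promoters and 35.7% of the 14452 that belong to genes on the array. These are matches of letters and not measured binding.

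Ube2c read 12.25, 12.18, 12.17, 12.21 and 11.78 in control and 10.62, 11.25, 10.92, 11.13 and 11.09 in MEKi tumours. Control 5 was the lowest control but lay above every MEKi tumour, and Ube2c fell 2.17-fold (-1.12 ± 0.14, adjusted p = 0.00551). Mki67, the common marker of cycling cells, read 11.58, 11.71, 11.58, 11.53 and 11.30 in control and 10.85, 11.04, 10.69, 11.00 and 10.91 in MEKi tumours, a fall of 0.64 ± 0.09 (adjusted p = 0.00823). Aurkb, the kinase of the chromosomal passenger complex, fell by 1.28 ± 0.17, Nusap1, a spindle protein, by 1.13 ± 0.14 and Racgap1, which acts in cytokinesis, by 0.89 ± 0.10 (adjusted p = 0.00693, 0.00640 and 0.00427). Among replication genes Pola1, a subunit of polymerase alpha, fell by 0.81 ± 0.11, the methylation reader Uhrf1 by 0.74 ± 0.08 and the sliding clamp Pcna by 0.46 ± 0.07 (adjusted p = 0.00836, 0.00427 and 0.0112).

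The mean signal of the mitosis list was 10.27 to 10.70 in control and 9.36 to 9.94 in MEKi tumours, with the MEKi tumours 1 and 3 lowest. Its median change was -1.04 and -0.70 within the lower and higher range of tumour numbers. Genes of quiescence moved the other way in part. Of 19 measured CDK inhibitors and quiescence genes 5 rose and none fell (26.3% higher, against 5.93% of all genes and 10.2% at a mean of at least 4). They included Gas1, a growth arrest gene (1.11 ± 0.16, adjusted p = 0.00872), and Foxo1, a transcription factor held back by AKT (0.69 ± 0.07, adjusted p = 0.00418). The other calls were Pdcd4, Foxo3 and Yap1, and no CDK inhibitor gene was called. Cdkn2c was at -0.40 ± 0.16, Cdkn2d at -0.39 ± 0.11 and Cdkn1a at 0.37 ± 0.18 (adjusted p = 0.182, 0.0588 and 0.295). Of the whole list 16 genes lay above 0 and 3 below. With the adipocyte covariate 3 were called higher and 2 lower. In ribosome biogenesis 5 of 26 genes fell (19.2%, against 5.03% of all genes), such as the nucleolar protein Nop56 (-0.58 ± 0.10, adjusted p = 0.0167, and 0.0773 with 18 arrays). The 33 mitosis calls became 18, 16 and 18 without control 1, 2 and 3 and 18 and 21 without MEKi 1 and 3, and the 24 replication calls 12 each without control 1, 2 and 3, 15 without control 4 and 13 without MEKi 1. The 5 calls of the quiescence list became 3 without control 2 or MEKi 1 or 2. The 5 of ribosome biogenesis became 1 without control 1, 2, 3 or 4 or MEKi 1 or 3, and 3 without MEKi 2 or 5.

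**Figure D3:**
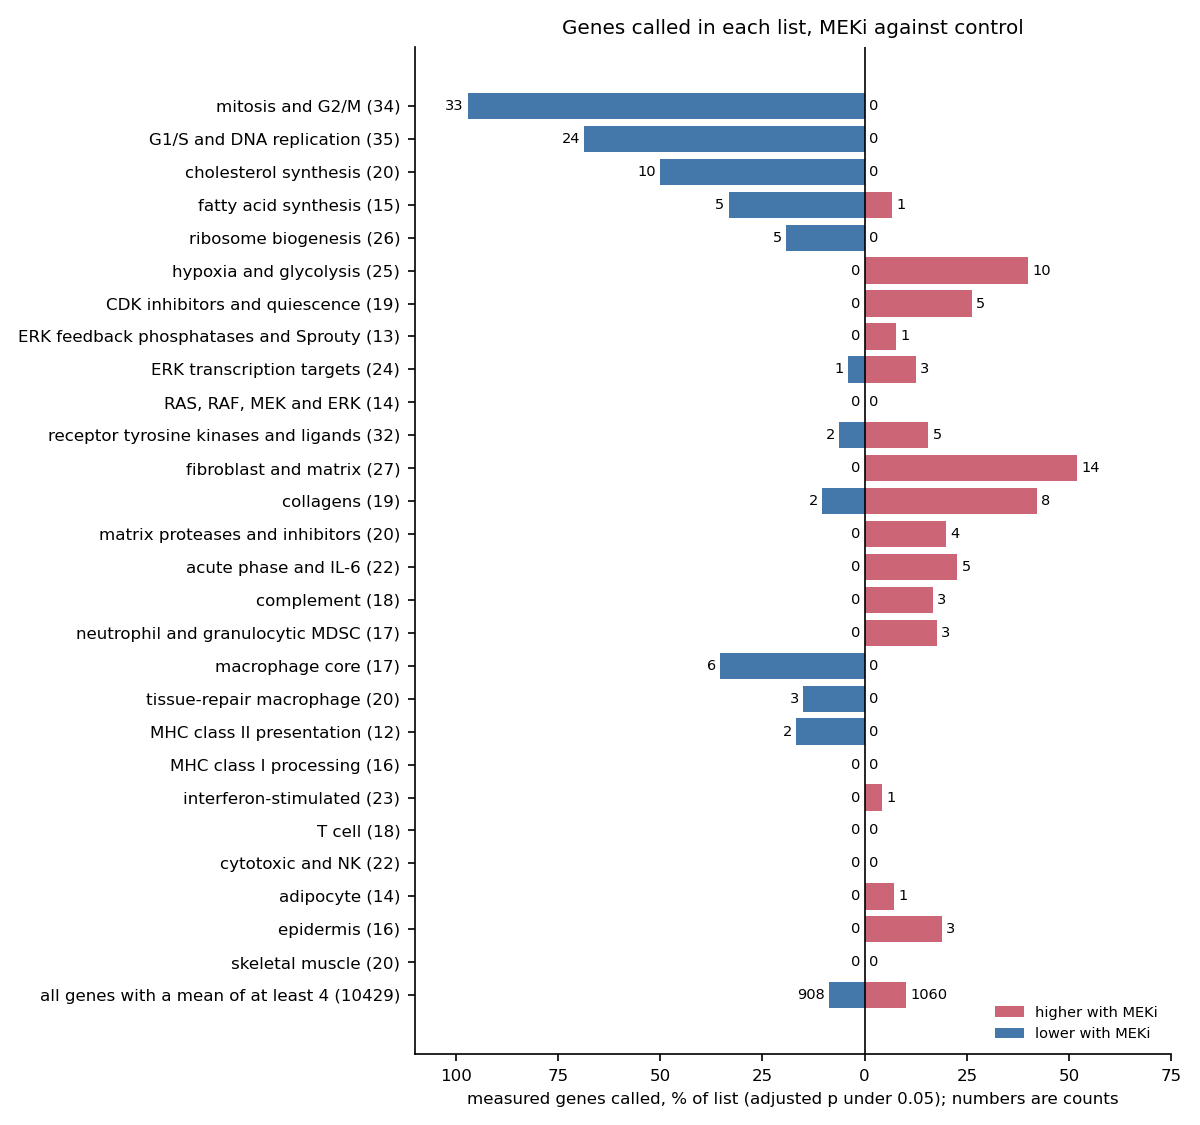
Share of the measured genes of each list (vertical axis, number measured in brackets) called higher or lower with MEKi (horizontal axis, % of the list, with counts at the bar ends). The last bar gives all 10429 genes with a mean of at least 4, of which 1060 were higher and 908 lower.

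Sterol synthesis was the second programme that fell. Of 20 measured cholesterol synthesis genes 10 were lower and none higher, and the median member fell by 1.00. In the fatty acid list 5 of 15 fell and 1 rose. Among all genes 5.93% were higher and 5.03% lower, or 10.2% and 8.71% at a mean of at least 4. Nearly all promoters of the cholesterol synthesis list share the same element. Msmo1, the oxidase that removes methyl groups from lanosterol products, is therefore shown with its upstream window. The 250 bases before its start (RefSeq, GRCm38.p6, chr8:64733579-64733828, minus strand, written 5′ to 3′ along the gene) carry 3 CCAAT boxes on the gene's strand, in capitals.

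Msmo1: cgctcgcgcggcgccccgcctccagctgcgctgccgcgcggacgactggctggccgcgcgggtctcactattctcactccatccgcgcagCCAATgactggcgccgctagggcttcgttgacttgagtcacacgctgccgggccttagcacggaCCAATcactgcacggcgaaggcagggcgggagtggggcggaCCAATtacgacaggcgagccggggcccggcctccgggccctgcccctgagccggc

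CCAAT was present on either strand in 15 of 16 cholesterol synthesis promoters in the reference set (93.8%), beside the 34.5% of all promoters. For comparison, 9 of 23 promoters of the hypoxia and glycolysis list held it (39.1%).

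Msmo1 read 11.73, 11.51, 11.90, 12.45 and 11.50 in control and 10.09, 10.75, 10.02, 10.82 and 10.53 in MEKi tumours. The groups did not overlap and control 4 was the highest tumour, as it was for the whole list, whose mean signal was 10.26 there against 9.20 to 9.71 in the other controls and 8.15 to 9.10 in MEKi tumours. Msmo1 fell by 1.38 ± 0.24 (2.60-fold, adjusted p = 0.0144). Fdft1, which makes squalene, fell by 1.23 ± 0.24 (adjusted p = 0.0225) and the dehydrogenase Nsdhl by 1.24 ± 0.26 (adjusted p = 0.0257). Fads2, the delta-6 desaturase of polyunsaturated fatty acids, read 11.01, 10.74, 10.89, 11.34 and 10.28 in control and 9.02, 9.34, 8.38, 9.42 and 9.33 in MEKi tumours. It fell 3.37-fold (-1.75 ± 0.25, adjusted p = 0.00927), and Fads1, the delta-5 desaturase (-0.97 ± 0.16, adjusted p = 0.0135), and the elongase Elovl5 (-0.38 ± 0.03, adjusted p = 0.00279) fell with it.

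The sterol calls were close to the threshold. Of the 10, 1 was left without control 1 or 3 or MEKi 1, 2 without MEKi 2, 3 without MEKi 3 or 5 and 4 without control 2 or 4, and 3 with the ranges of tumour numbers as a block, while the median stayed between -1.14 and -0.85 in these leave-one-out fits. Leaving out control 1, control 3 or MEKi 1 ended the call of Fdft1 (highest adjusted p = 0.0599), and these or MEKi 2 or 3 that of Nsdhl (highest adjusted p = 0.0671). The 5 lower calls of the fatty acid list became 3 without control 3 or MEKi 1.

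Hypoxia and glycolysis genes rose. Of 25 measured, 10 were higher and none lower, against 5.93% of all genes, with a median of 0.52. Car9 is the carbonic anhydrase at the cell surface that hypoxia-inducible factor switches on, and its upstream window (RefSeq, GRCm38.p6, chr4:43506776-43507025, plus strand) is shown for the short core of the hypoxia response element, ACGTG, which lies there once, on the opposite strand and so read as CACGT, in capitals.

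Car9: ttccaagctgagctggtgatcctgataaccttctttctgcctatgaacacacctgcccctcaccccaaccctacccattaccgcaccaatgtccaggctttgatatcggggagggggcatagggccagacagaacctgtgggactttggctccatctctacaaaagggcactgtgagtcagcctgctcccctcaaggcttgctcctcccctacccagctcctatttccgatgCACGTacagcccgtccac

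ACGTG on either strand was present in 13 of 23 hypoxia and glycolysis promoters (56.5%), against 16.6% of all promoters and 19.8% of those of genes on the array. It was present in 8 of 28 mitosis promoters (28.6%) and 3 of 16 cholesterol synthesis promoters (18.8%).

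Car9 read 6.89, 7.51, 7.17, 7.10 and 7.36 in control and 11.58, 11.43, 11.65, 10.36 and 10.09 in MEKi tumours. Every MEKi tumour was above every control, MEKi 4 and 5 less so, and Car9 rose 14.1-fold (3.82 ± 0.34, adjusted p = 0.00279). Ero1a, an oxidase of disulfide formation in the endoplasmic reticulum, read 11.64, 11.41, 11.81, 12.10 and 11.73 in control and 13.22, 13.31, 13.65, 12.68 and 12.60 in MEKi tumours, again with the smaller values in MEKi 4 and 5, and rose by 1.35 ± 0.22 (adjusted p = 0.0130). Hk1, a hexokinase, rose by 0.81 ± 0.07 and Aldoa, the glycolytic aldolase, by 0.32 ± 0.05 (adjusted p = 0.00234 and 0.0136). Ankrd37, a small ankyrin protein and target of hypoxia-inducible factor, rose by 0.68 ± 0.14 (adjusted p = 0.0262). Vldlr, the very low density lipoprotein receptor, rose by 2.01 ± 0.40 (adjusted p = 0.0229). It was counted in the list of ATF4 and unfolded protein stress genes and not in the hypoxia and glycolysis list.

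Not all members moved that way, and 4 of the 25 lay below 0. Among these Pfkfb4 was at -0.89 ± 0.24 and the angiogenic factor Vegfa at -0.04 (adjusted p = 0.0616 and 1.00). The glucose transporter gene Slc2a1 went with the list, at 0.51, but did not pass (adjusted p = 0.0732). In the mitochondrial respiratory chain 1 of 23 genes was higher and 1 lower (4.35% each, near the shares of all genes, median -0.09). The 10 hypoxia and glycolysis calls became 6, 5 and 17 without control 2, control 3 and MEKi 4. Ankrd37 lost its call without control 1, 2 or 3 or MEKi 2 or 5 (highest adjusted p = 0.0652), in the 18-array model (0.163) and with an intensity trend (0.0550), and Vldlr without control 2 or 3 or MEKi 1 or 2 (highest adjusted p = 0.0605).

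Matrix genes rose, and 4 of the 12 largest rises, Ccn5, Lum, Mfap5 and Lox, were in the fibroblast and matrix list. Of 27 measured fibroblast and matrix genes 14 were higher and none lower (51.9%, median 1.02, and 0.94 with values below 3 raised to 3). Of 19 collagens 8 were higher and 2 lower (42.1% and 10.5%, against 5.93% and 5.03% of all genes, median 0.20). Lum, the collagen-binding proteoglycan lumican, read 4.38, 4.46, 4.29, 5.35 and 4.21 in control and 8.81, 9.33, 8.70, 7.77 and 7.72 in MEKi tumours. The groups were far apart, and Lum rose 15.2-fold (3.93 ± 0.37, adjusted p = 0.00301). Col1a1, the alpha 1 chain of type I collagen, read 7.50, 9.67, 8.58, 8.05 and 8.90 in control and 12.06 ± 0.83 in MEKi tumours, where MEKi 1 was highest and MEKi 4 lowest at 11.02, above every control. It rose by 3.52 ± 0.51 (11.4-fold, adjusted p = 0.00940). Col3a1, a fibrillar collagen already at 15.12 in control, rose by 0.38 ± 0.07 (adjusted p = 0.0155), and Sparc, a matrix glycoprotein at 14.01, by 0.61 ± 0.07 (adjusted p = 0.00570).

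Ccn5, a matricellular protein, rose at least 30.5-fold (adjusted p = 0.00301), from 4.08 ± 0.30 to 9.01 ± 1.01, where 4 controls at 3.94 or 3.95 repeat the lowest value of its probe set and so are a floor. Ccdc80, a secreted matrix protein, rose by 4.52 ± 0.31 (adjusted p = 0.00104). Mfap5, a microfibril protein, rose by 3.81 ± 0.27, Omd, the keratan sulfate proteoglycan osteomodulin, by 3.62 ± 0.61, Timp3, a metalloproteinase inhibitor bound to matrix, by 3.60 ± 0.56, and Lox, the lysyl oxidase that cross-links collagen, by 3.54 ± 0.40 (adjusted p = 0.00131, 0.0142, 0.0112 and 0.00462). The proteoglycan Bgn, already bright in control (9.20 ± 0.16), rose by 2.26 ± 0.13 (adjusted p = 0.00101). Among collagens Col12a1 rose by 3.25 ± 0.39, Col16a1 by 1.05 ± 0.11 and Col5a2 by 0.87 ± 0.09 (adjusted p = 0.00535, 0.00408 and 0.00427). The 2 called lower were Col14a1, which fell by 1.68 ± 0.20, and Col18a1, by 1.35 ± 0.16 (adjusted p = 0.00535 and 0.00523). Col18a1 is a basement membrane collagen and the source of endostatin. Mylk, the myosin light chain kinase, rose by 1.27 ± 0.14 and Adamts5, an aggrecanase, by 1.39 ± 0.22 (adjusted p = 0.00431 and 0.0118).

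Of the other large rises, Chl1, a cell adhesion molecule of the L1 family, rose by 3.78 ± 0.53 (adjusted p = 0.00829). Adgrd1, an adhesion G protein-coupled receptor, had 3 controls below 3 and so rose at least 10.1-fold, and the NOD-like receptor gene Nlrp4e, with 1 control below 3, at least 14.3-fold (adjusted p = 0.00551 for both). The 14 matrix calls became 8 without control 2 or 3 and 9 without MEKi 3, and the count of collagen calls stayed at 7 or 8 higher.

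Some markers of tissue around the tumour were also higher in MEKi than in control tumours. The mean signal of 14 adipocyte genes was 3.20 to 3.69 in control and 3.46 to 4.52 in MEKi tumours. Called was 1 of them (7.14%, near the 5.93% of all genes), the fatty acid binding protein Fabp4 (1.65 ± 0.28, adjusted p = 0.0148). Adipoq, the fat-cell hormone adiponectin, read 3.91, 2.33, 2.39, 2.33 and 2.33 in control and 5.26, 7.19, 2.52, 8.18 and 7.47 in MEKi tumours, so MEKi 3 was at background (3.47 ± 1.05, adjusted p = 0.0851), and the brown fat genes Ucp1 and Cidea and the hormone Lep averaged 2.16 or 2.17 in both groups. The mean of 16 epidermis genes was 2.81 to 3.09 in control and 3.15 to 3.85 in MEKi tumours. Of these genes 3 rose (18.8%, against 5.93% of all genes). Among them Trp63, the master factor of squamous epithelium, was below 3 in 4 controls and rose at least 8.60-fold (3.39 ± 0.53, adjusted p = 0.0116). The basal keratin Krt14 was at 2.16 in all controls and at 5.33, 3.14, 4.22, 2.86 and 5.45 in MEKi tumours (adjusted p = 0.0521), while Krt15 and the cornified envelope gene Ivl lay at 2.16 in both groups. The 3 epidermis calls became 1 without control 1, 3 or 4 or MEKi 1, 3 or 5. None of 20 skeletal muscle genes was called, and 0 had an unadjusted p under 0.05 (limma).

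In MEKi 1 to 5 the mean of the matrix list was 9.20, 9.41, 9.53, 8.49 and 8.72, against 7.21 to 7.47 in control. The adipocyte mean of MEKi 1 to 5 was 4.01, 4.34, 3.46, 4.52 and 4.44. Under the adipocyte covariate 14 matrix genes were again higher and none lower (median 2.08), and Fabp4 was not called (adjusted p = 0.0607, and 0.185 in the 18-array model). As the adipocyte mean was itself higher in most MEKi tumours, this covariate cannot separate fat from treatment. The part of adipose tissue and of epidermis in the matrix rises was not tested.

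**Figure D4:**
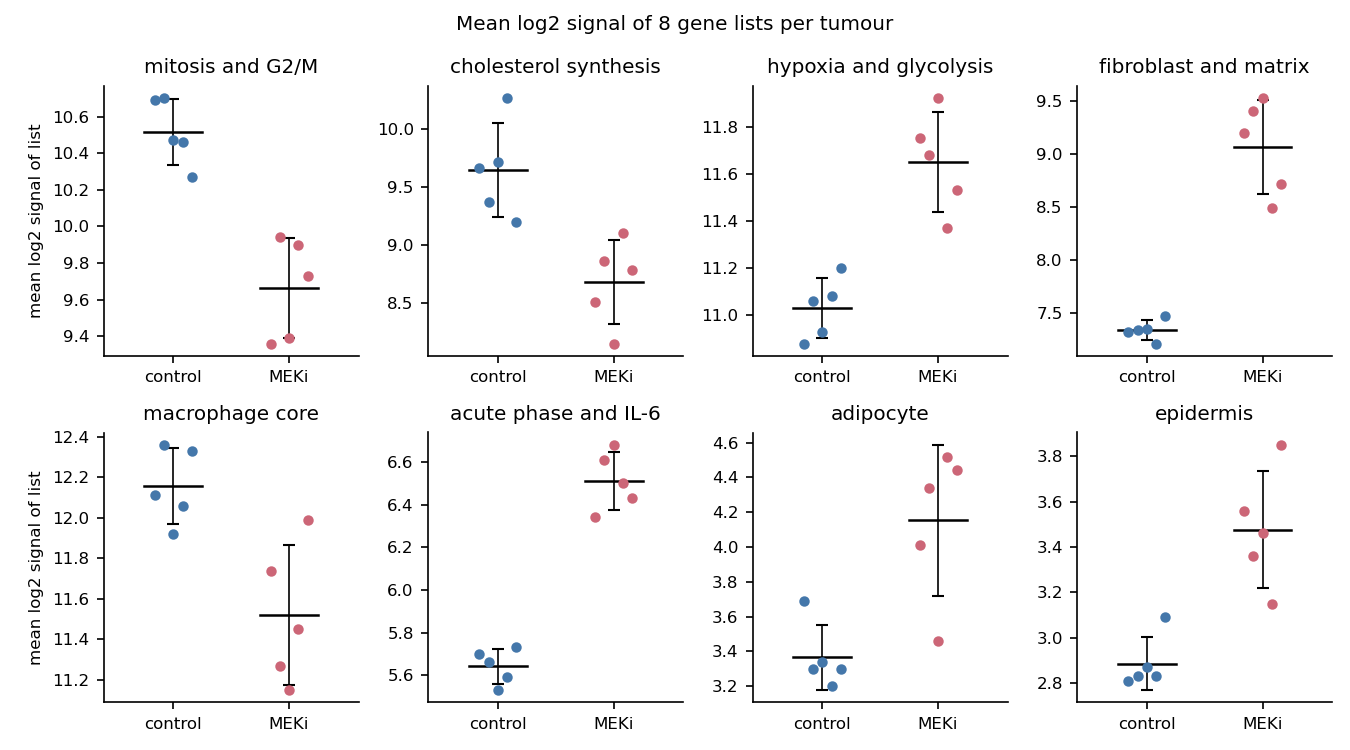
Mean log2 signal of 8 gene lists (vertical axes) in control and MEKi tumours (horizontal axes). Each point is a tumour, with the group mean as a mark and its SD as a bar. The matrix genes averaged 8.49 to 9.53 in MEKi and 7.21 to 7.47 in control tumours. The adipocyte genes averaged 3.46 to 4.52 and 3.20 to 3.69.

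Macrophage genes fell in part. Of 17 measured core macrophage genes 6 were lower and none higher (35.3%, median -0.59). Among 20 genes linked to tissue repair 3 were lower and none higher (median 0.00). The share lower was 5.03% over all genes and 8.71% at a mean of at least 4. Of the 12 largest falls 1, Mrc1, was in either list. Mrc1, the mannose receptor CD206, read 11.00, 9.65, 9.58, 10.65 and 9.76 in control and 7.37, 7.76, 7.40, 6.92 and 7.20 in MEKi tumours. The MEKi tumours lay close together and below every control, and Mrc1 fell 6.95-fold (-2.80 ± 0.31, adjusted p = 0.00469). Stab1, a scavenger receptor, fell by 1.22 ± 0.23 (adjusted p = 0.0195) and Selenop, the selenium carrier, by 0.63 ± 0.16 (adjusted p = 0.0468). The repair list as a whole did not fall. Of its genes 13 lay above 0 and 7 below, several of them at background. Among those above, F13a1 was at 1.49 ± 0.47 and Chil3 at 2.09 ± 1.05 and did not pass (adjusted p = 0.096 and 0.329). The list mean was 5.65 ± 0.37 in control and 5.73 ± 0.34 in MEKi tumours.

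Fcrls, an Fc receptor-like gene typical of microglia, read 12.06, 11.42, 11.54, 11.19 and 11.08 in control and 9.66, 8.59, 9.16, 9.20 and 9.72 in MEKi tumours. It fell by 2.19 ± 0.26 without overlap (4.57-fold, adjusted p = 0.00535). Fcrls and the next 3 are in no list used here, and that they are known from microglia is background. The purinergic receptors P2ry13 and P2ry12 fell by 2.60 ± 0.43 and 2.48 ± 0.53 and the lysophosphatidylserine receptor Gpr34 by 2.31 ± 0.39 (adjusted p = 0.0130, 0.0292 and 0.0137). Tbxas1, thromboxane synthase, fell by 1.83 ± 0.30, Itgal, the integrin chain CD11a, by 1.93 ± 0.39 and Klrb1b, an NK receptor gene, by 2.63 ± 0.49 (adjusted p = 0.0130, 0.0245 and 0.0189).

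Of the shared macrophage markers, Csf1r, the receptor for CSF1, fell by 0.88 ± 0.18, Itgam, which encodes CD11b, by 1.37 ± 0.26, and the Fc receptor gene Fcgr3 by 1.03 ± 0.18 (adjusted p = 0.0273, 0.0206 and 0.0165). Of 24 lysosome genes 1 was lower and 1 higher (median 0.02), near the share of all genes. The lower one was Ctsc, cathepsin C (-1.11 ± 0.20, adjusted p = 0.0176), and the higher one Lamp2, a membrane protein of lysosomes (0.48 ± 0.11, adjusted p = 0.0386), while the cathepsins Ctsb (0.00 ± 0.08) and Ctsd (0.03 ± 0.09) did not pass. In the class II list the protease Lgmn, legumain, fell by 0.85 ± 0.14 and Ifi30, the thiol reductase of antigen processing, by 1.10 ± 0.19 (adjusted p = 0.0125 and 0.0153). Arg1, arginase, was at -1.14 ± 0.41 (adjusted p = 0.146, and 0.0421 among probe sets with a mean of at least 4), and Nos2 was at 2.16 or 2.17 in every tumour.

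Among chemokine ligands 3 of 33 were higher (9.09%) and 2 lower (6.06%), and among receptors 1 of 20 was lower (5.00%), shares near those of all genes. Ccr1, a receptor of myeloid cells, read 10.21, 9.48, 9.52, 9.31 and 9.46 in control and 6.06, 7.56, 5.52, 7.52 and 6.62 in MEKi tumours. It fell 7.67-fold (-2.94 ± 0.42, adjusted p = 0.00908). Cxcl14, a chemokine of epithelium and fibroblasts, had the largest fall of the genes named here, from 8.23 ± 0.53 to 5.00 ± 0.79 (-3.23 ± 0.41, adjusted p = 0.00644), and Ccl2, which draws monocytes, fell by 0.82 ± 0.18 (adjusted p = 0.0298). Cxcl12, the ligand of Cxcr4 that fibroblasts secrete, read 4.97, 5.42, 5.46, 6.34 and 6.32 in control and 9.44, 9.09, 9.49, 7.96 and 7.78 in MEKi tumours and rose 8.28-fold (3.05 ± 0.45, adjusted p = 0.00959).

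The mean signal of the core list overlapped between the groups (11.92 to 12.36 in control and 11.15 to 11.99 in MEKi tumours). Its 6 calls became 1 without control 1, 2 without control 2, 3 or 5 or MEKi 1 or 2, 3 without control 4 or MEKi 3 or 4, and 3 with the ranges of tumour numbers as a block. The 3 calls of the repair list became 2 in all leave-one-out fits but those without control 3 or MEKi 5. Of the chemokine ligands 1 higher and 1 lower were left without control 1, 2 or 3 or MEKi 1. Csf1r lost its call without control 1, 2, 3 or 5 or MEKi 1 or 2, P2ry12 without control 1 to 4 or MEKi 1 or 2, Itgal without control 2 or 3 or MEKi 1 or 2, Itgam without control 1, Ccl2 without control 1 to 4 or MEKi 1, 2 or 5, and Selenop in all but the fits without control 3 or MEKi 5 (highest adjusted p = 0.0661, 0.0701, 0.0594, 0.0523, 0.0761 and 0.105). The 18-array model ended the calls of Fcgr3 (adjusted p = 0.0870), Ccl2 (0.0808) and Selenop (0.0897), the adipocyte covariate those of Stab1 (0.0537), Klrb1b (0.0824) and Selenop (0.132), the block that of Selenop (0.0659), and an intensity trend those of Ccl2 (0.0519) and Selenop (0.0771).

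A pair of further falls stood outside these groups. Spint1, an inhibitor of the hepatocyte growth factor activator and the single epithelial list member that was called, fell by 2.21 ± 0.35 (adjusted p = 0.0120), and Nptx1, the neuronal pentraxin 1, by 1.99 ± 0.33 (adjusted p = 0.0135).

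Acute-phase, complement and neutrophil genes rose in part. Of 22 acute-phase and IL-6 genes 5 were higher and none lower (22.7%). Of 18 complement genes 3 were higher (16.7%), and of 17 neutrophil genes 3 were higher (17.6%). Over all genes the share was 5.93%, and 10.2% at a mean of at least 4. S100a8, a calprotectin subunit of neutrophils, read 3.35, 3.70, 2.95, 3.72 and 3.91 in control and 6.35, 7.30, 6.94, 6.65 and 4.43 in MEKi tumours. MEKi 5 was the lowest MEKi tumour, still above the controls, and S100a8 rose at least 6.95-fold (2.81 ± 0.52, adjusted p = 0.0181). Its partner S100a9 was below 3 in all controls and in MEKi 5 (2.48) and at 5.48 to 6.41 in the other MEKi tumours, so its bound of 4.78-fold is not strict (adjusted p = 0.0443, and 0.0534 with values below 3 raised to 3). The granule genes Camp, Ngp and Ltf lay at 2.16 in both groups. Other members above background did not pass. Csf3r was at -0.40 ± 0.23, Mmp9 at -0.15 ± 0.23, Trem1 at 0.12 ± 0.23 and Clec4d at 1.22 ± 0.37 (adjusted p = 0.423, 0.866, 0.956 and 0.0866). The remaining call of the neutrophil list was the neutrophil chemokine Cxcl1, counted among the chemokine ligands as well, which rose by 2.02 ± 0.44 (adjusted p = 0.0312).

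Ptx3, the long pentraxin, was below 3 in 3 controls and rose at least 17.3-fold, to 7.26 ± 1.60 (adjusted p = 0.0146). Serping1, the C1 inhibitor, rose by 3.29 ± 0.45, the decay-accelerating gene Cd55 at least 6.60-fold from background, and the protease C1ra by 1.94 ± 0.36 (adjusted p = 0.00789, 0.00101 and 0.0184). In the complement list 11 genes lay above 0 and 7 below. Among those below, C1qa was at -0.59 ± 0.17, C1qb at -0.55 ± 0.19, C1qc at -0.83 ± 0.22 and Cfp at -0.78 ± 0.23. They did not pass (adjusted p = 0.0683, 0.117, 0.0571 and 0.084). Of the IL-6 family receptors Osmr rose by 1.47 ± 0.25 and the shared subunit Il6st by 0.65 ± 0.11 (adjusted p = 0.0143 and 0.0155), while Il6ra was at -0.04 ± 0.17 and Lifr at 0.80 ± 0.26 (adjusted p = 1.00 and 0.102). Saa3, serum amyloid A3, read 7.28, 5.30, 5.74, 5.74 and 5.30 in control and 6.48, 10.53, 10.86, 9.82 and 9.09 in MEKi tumours, with MEKi 1 inside the control range (3.48 ± 0.84, adjusted p = 0.0436). Plac8, a gene of recently recruited monocytes, rose by 1.56 ± 0.26 (adjusted p = 0.0127). Of the 12 measured genes of the monocyte list 7 were above 0 and 5 below. The other higher call was Fn1 (0.41 ± 0.07, adjusted p = 0.0171) and the lower call Itgal. The receptors Ccr2 (-1.04 ± 0.52) and Cx3cr1 (-1.45 ± 0.41) did not pass (adjusted p = 0.324 and 0.0721).

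Saa3 was called in 1 of 10 leave-one-out fits, that without MEKi 1, and S100a9 in 1, that without MEKi 5 (highest adjusted p = 0.0962 and 0.105). Neither was called with the block (adjusted p = 0.0652 and 0.0564), the adipocyte covariate (0.255 and 0.108) or an intensity trend (0.0658 and 0.0678). Cxcl1 kept its call in the fits without MEKi 3, 4 or 5 and lost it in the other 7 (highest adjusted p = 0.0776, and 0.0509 with an intensity trend), and C1ra was lost without MEKi 1 (0.0510). The 3 neutrophil calls became 1 without any 1 control or without MEKi 1 or 2, and the 5 acute-phase calls 3 without control 2 or 4 or MEKi 2 or 5.

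T cell and cytotoxic lists held no call. By limma none of 18 T cell genes, 22 cytotoxic and NK genes and 16 class I processing genes was called, while 0, 2 and 3 of them had an unadjusted p under 0.05 (medians 0.11, -0.41 and 0.10). Cd8a read 6.20, 7.47, 5.45, 6.00 and 7.58 in control and 7.65, 6.76, 6.96, 6.97 and 7.73 in MEKi tumours. The groups overlapped, with the 3 lowest values in control, and the change was 0.67 ± 0.45 (95% interval -0.37 to 1.72, adjusted p = 0.525). Cd3g, a chain of the T cell receptor complex, was at 0.67 ± 0.60, the granzyme Gzmb at -0.81 ± 0.50 and Ifng at 0.04 ± 0.45 (adjusted p = 0.629, 0.466 and 1.00). Foxp3, the factor of regulatory T cells, lay at background in every tumour (2.27 to 2.45). The interval of Cd8a held both no change and a 2-fold rise.

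Few interferon and antigen presentation genes were called, and the lists leaned in different directions. Of the 23 interferon-stimulated genes 22 were above 0, while all 12 class II genes were below 0 (median -0.64). Among 23 interferon-stimulated genes 1 rose, the exonuclease Isg20 (1.06 ± 0.14, adjusted p = 0.00644), with a median of 0.30. The T cell attractant Cxcl9 was at -0.59 ± 0.47, Cd274, which encodes PD-L1, at -0.02 ± 0.25, and the class II chain H2-Ab1 at -0.66 ± 0.66 (adjusted p = 0.629, 1.00 and 0.632). Class I genes were bright and varied little, with B2m at 0.11 ± 0.03 (adjusted p = 0.0596, and 0.0148 with 18 arrays) and H2-K1 at 0.16 ± 0.07 (0.244). Ccl5, a chemokine of activated T cells, was at 0.80 ± 0.22 (adjusted p = 0.0620), and was called among probe sets with a mean of at least 4 (0.0153) and in the 18-array model (0.0210). Tnfrsf9, the costimulatory receptor 4-1BB, rose by 2.48 ± 0.43 (adjusted p = 0.0149).

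The remaining lists are read against the 5.93% of genes higher and 5.03% lower, or 10.2% and 8.71% at a mean of at least 4. Of 20 matrix proteases and inhibitors 4 were higher (1 in 5, median 0.49), of 17 contractile and pericyte genes 3 were higher (17.6%, median 0.04), of 23 endothelial genes 2 were higher and 1 lower, of 27 stress genes of the ATF4 and unfolded protein responses 3 were higher, and of 19 p53 targets 2 were higher and 2 lower. Among 12 heat shock chaperones 1 was higher and 2 lower, and their mean signal was 12.56 in MEKi 3 against 11.02 to 11.79 in the other 9 tumours. Of the remaining immune lists, 2 of 12 monocyte genes were higher and 1 lower, 1 of 16 dendritic cell genes was lower, 1 of 14 B cell genes was lower, 1 of 12 regulatory T cell genes and 1 of 21 checkpoint genes were higher, 1 of 19 interferon-gamma targets was higher and 2 of 12 class II genes were lower (16.7%, Lgmn and Ifi30), with all 12 below 0 and a median of -0.64. Of 15 genes of classical macrophage activation 1 was lower. None of 5 red blood cell and 8 nerve genes was called (limma, 1 and 0 at an unadjusted p under 0.05). Single tumours decided many of these small counts. Without MEKi 1 the stress count became 1, the upper p53 count 0, the upper endothelial count 1, and the upper heat shock count, the upper lysosome count and the lower counts of monocyte, dendritic cell, B cell and classical activation genes 0, and without control 2 the interferon-stimulated count became 5.

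RNA quality measures differed between the groups. The log2 difference between the 3′ and 5′ probe sets was 0.33 ± 0.0563 (SD) in control and 0.39 ± 0.0130 in MEKi tumours for Actb and -0.25 ± 0.0230 and -0.22 ± 0.0167 for Gapdh (exact permutation tests, two-sided, adjusted p = 0.0396 and 0.0476 over 5 tests). The 18S rRNA signal of the 3′ probe set was 12.27 ± 0.485 in control and 13.53 ± 0.134 in MEKi tumours (exact p = 0.00794, the smallest that 5 against 5 allows, adjusted p = 0.0132). The middle and 5′ probe sets read 13.30 ± 0.420 and 14.40 ± 0.258 in control and 14.28 ± 0.107 and 14.94 ± 0.0612 in MEKi tumours, at the same exact p. No group overlapped for any of the 3, and MEKi was higher by 1.26, 0.974 and 0.542 (3′, middle and 5′). Their part in the results was not tested. Mean signal of the housekeeping list was 12.99 to 13.09 in control and 12.92 to 12.99 in MEKi tumours.

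How did the inhibitor's effect compare when anti-CD40 was present? The effect of GDC-0623 on top of anti-CD40 minus its effect alone was called for 479 probe sets on the higher and 712 on the lower side (0.962% and 1.51% of genes, 2-by-2 model of 18 arrays). These were 2.64% of all probe sets. Of the tissue-repair macrophage list 6 of 20 genes were on the higher side, and of the mitosis list 8 of 34 on the lower side, where Ube2c was at -1.02 ± 0.25 (adjusted p = 0.0472). Mrc1 was at 8.02, 8.44, 8.09 and 9.31 with anti-CD40 and at 8.43, 8.36, 11.15 and 9.39 with MEKi/CD40, so its mean was not lower with the inhibitor there (difference of effects 3.67 ± 0.72, adjusted p = 0.0170). For the other genes of this kind the term was 2.14 ± 0.46 for Stab1 and 1.50 ± 0.32 for Selenop (adjusted p = 0.0281 and 0.0262). Gas6, a ligand of the TAM receptors, was at -0.82 ± 0.41 with MEKi alone (adjusted p = 0.328, and -1.99 with adjusted p = 0.0443 under the adipocyte covariate) and had a difference of effects of 5.06 ± 0.90 (adjusted p = 0.0123).

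Pi16, a marker of universal fibroblasts, read 3.10, 2.43, 2.48, 3.10 and 3.10 in control, 2.48, 7.73, 5.90, 4.88 and 5.02 in MEKi and 10.89, 10.47, 11.80 and 10.09 in MEKi/CD40 tumours. MEKi 1 stayed at background while the other 4 MEKi tumours lay between the control and the MEKi/CD40 values (MEKi against control 2.36 ± 0.84, adjusted p = 0.142, and 0.0399 among probe sets with a mean of at least 4 and 0.0497 in the 18-array model). The difference of effects passed for Pi16 (adjusted p = 0.0189). Clec3b, tetranectin, was below 3 in all controls, all anti-CD40 tumours and 4 MEKi tumours and at 8.07 to 9.38 with MEKi/CD40 (adjusted p = 0.000106), and Tnxb, tenascin X, lay at 7.15 to 9.01 there and below 3 in all other tumours but MEKi 2 (adjusted p = 0.000284). Mbp, myelin basic protein, was at 5.15 to 10.30 with MEKi/CD40 and below 3 in all other groups (adjusted p = 0.0183), and Apol11b, an apolipoprotein L gene, at 7.27 to 8.73 against at most 4.24 (adjusted p = 0.00155). With values below 3 set to 3, Clec3b was at least 42.0-fold, Tnxb at least 32.2-fold, Apol11b at least 27.0-fold and Mbp at least 24.2-fold higher with MEKi/CD40 than with MEKi, and Pi16 at least 45.5-fold, limits that set no order among them (adjusted p = 0.0120, 0.0155, 0.0120, 0.0495 and 0.0401).

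Markers of surrounding tissue were also higher in some MEKi/CD40 tumours. The adipocyte mean was 3.64, 9.54, 4.68 and 5.79 in the MEKi/CD40 tumours against 3.08 to 5.06 with anti-CD40 and 3.46 to 4.52 with MEKi, and the skeletal muscle mean was 7.10 in MEKi/CD40 4 and at most 3.35 in every other tumour. The mean of 8 nerve and Schwann cell genes was 4.45 to 5.43 with MEKi/CD40 and 3.77 to 4.12 in the other groups. Their part in these differences was not tested. The differences of effects for Lum (1.13 ± 0.73), Col1a1 (1.44), Car9 (-0.87 ± 0.83) and Igf1 (2.67) did not pass (adjusted p = 0.571, 0.328, 0.713 and 0.223).

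On the lower side Nptx1 fell further, to 5.26, 3.40, 3.13 and 4.13 with MEKi/CD40 from 6.95, 8.71, 7.98, 8.42 and 8.34 with MEKi (difference of effects -4.58 ± 0.58, adjusted p = 0.00296). The next 4 by size on this side were Gzmk, a granzyme (-2.70 ± 0.61), the TEAD factor Tead4 (-2.27 ± 0.54), the potassium channel subunit Kcne3 (-2.17 ± 0.46) and Coq8a, of coenzyme Q synthesis (-2.15 ± 0.51). Gzmk lay at 4.64 to 4.85 with MEKi, 4.55 to 4.85 in control and 6.86 to 9.54 with anti-CD40. Direct comparison of MEKi/CD40 with MEKi gave 332 higher and 795 lower probe sets (2.50% together, and 0.962% and 1.92% of genes), and the named genes included Clec3b, Pi16, Tnxb, Mbp and Apol11b on the higher side and, by size on the lower side, Nptx1 (-4.10 ± 0.53), Kcne3, Coq8a, the synaptic gene Rapsn (-1.97 ± 0.27) and Ankrd37 (-1.80 ± 0.29). 

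Both counts depended on single tumours. The difference of effects was called for 695, 633 and 719 probe sets without control 2, 3 and 5, for 625, 624 and 761 without MEKi 2, 4 and 5, and for 712, 618, 748 and 768 without anti-CD40 1, 2, 3 and 4, against 1191 in all. MEKi/CD40 against MEKi gave 678, 38, 247, 36 and 29 without MEKi 1, 2, 3, 4 and 5 and 271 and 232 without MEKi/CD40 1 and 2, against 1127. All anti-CD40 and MEKi/CD40 tumours carried numbers of the lower range, and against the 2 MEKi tumours of that range 10 probe sets were called.

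**Figure D5:**
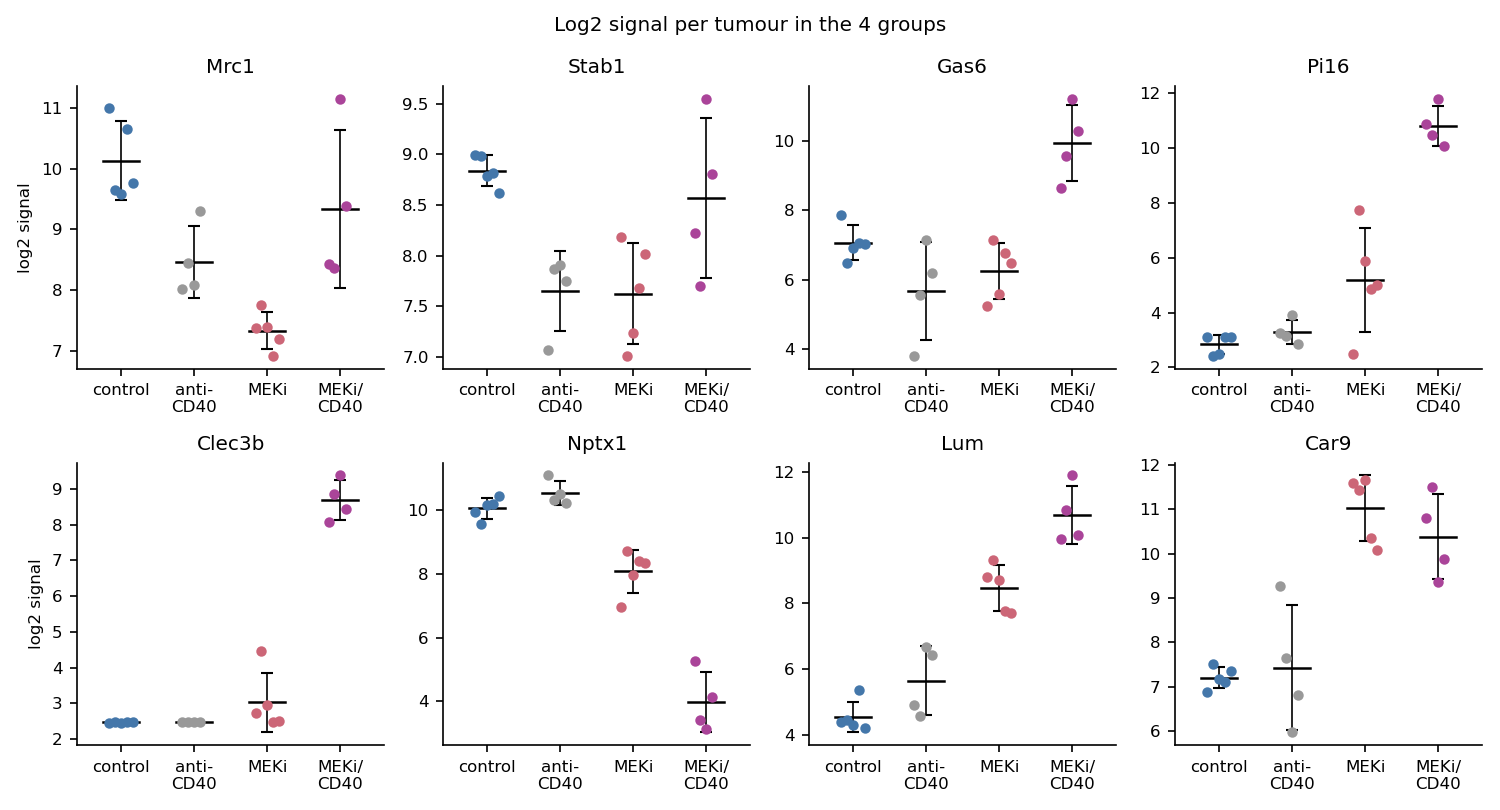
Log2 signal (vertical axes) of 8 genes in the 4 groups (horizontal axes). Each point is a tumour, with the group mean as a mark and its SD as a bar. Mrc1 was lowest with MEKi (6.92 to 7.76), Clec3b left background in all 4 MEKi/CD40 tumours (8.07 to 9.38), and Car9 was high in both groups given the inhibitor.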

How the data were processed

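RNA of 18 whole MC38 tumours was measured on Affymetrix Mouse430_2 arrays, 1 array per tumour, of which the 5 control and 5 MEKi arrays are compared here. The deposited values are log2 signals that the authors made with RMA in Chipster (versions not given in the sources used here). RMA corrects background and makes the arrays alike in distribution, so it can hide a shift shared by all genes, and 34.5% of the values lie at the lowest value, 2.16. Array medians were 2.72 to 2.95.

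Of 45101 probe sets 64 controls were left out. The platform annotation gave 34945 probe sets 1 gene symbol, 932 several and 9160 none, and 18193 genes were each represented by the probe set with the highest mean, passing over cross-hybridising designs where another existed. Groups were compared with limma 3.58.1 (statmod 1.5.0, R 4.3.3, empirical Bayes, Benjamini-Hochberg over all probe sets, a call being an adjusted p under 0.05), with 10 arrays for MEKi against control, 9 for MEKi/CD40 against MEKi and 18 for the 2-by-2 model. The effect with anti-CD40 and that without share no arrays, but both comparisons with MEKi share the MEKi arrays. Where a group has values below 3, a fold is a bound with those values set to 3. With 5 arrays a group, their number limits the precision. The labels give separate tumours as replicates. RNA quality was tested by exact permutation in scipy 1.17.1 under Python 3.11.15, and figures were drawn with matplotlib 3.10.9. The script was tested on simulated data.

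The text names, for each direction, the 12 largest changes without overlap, up to 4 members of each of 47 gene lists by p, 34 preset genes and, in the other comparisons, 5 per direction. Further list members, such as Map2k1, Vegfa, Col3a1, Sparc, Lamp2, Ctsb, Lifr and the markers at background, were named after their values were seen. The members and the lists were chosen with earlier results of these data known. Of 926 genes in the lists 846 were measured. Alternatives were quantile and cyclic loess normalization, a floor of 3, a minimum mean of 4, an intensity trend with robust moderation, all 18 arrays in 1 model, the number range as a block and within each range, the replicate number as a block, an adipocyte covariate and leaving out each array. Promoters are RefSeq's on GRCm38.p6, 250 bases before the start, searched on both strands.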

Additional observations from a re-analysis of the deposited data

Results flagged for a closer look

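A tumour far from the other 4 of its group was found for 23 of 232 groups of values, and chance gives about 1 in 20. In the control group control 1 stood high for Ccdc80 (6.22), Ptx3 (3.73), Ccr1 (10.21), Saa3 (7.28) and Adipoq (3.91) and low for Fosl2 (11.05) and Col5a2 (13.22). Control 4 stood high for Lum (5.35) and low for Apol11b (2.16). Control 5 stood low for Ube2c (11.78) and high for Aldoa (13.94), Ccn5 (4.62), B2m (15.03) and Trp63 (4.88). Among MEKi tumours MEKi 1 stood high for Nos2 (2.17) and low for Foxp3 (2.27), both background values, MEKi 2 high for Clec3b (4.47), Tnxb (4.07) and Mbp (2.91), MEKi 3 low for Fads1 (10.12) and Coq8a (8.27), and MEKi 5 low for S100a9 (2.48) and high for Ifng (5.42).

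The effect of the inhibitor differed with and without anti-CD40, by the interaction term, for 18 of the named genes. The difference was positive for Clec3b (5.66), Tnxb (5.60), Mbp (5.29), Pi16 (5.16), Gas6 (5.06), Apol11b (4.52), Mrc1 (3.67), Stab1 (2.14), Adamts5 (1.53), Selenop (1.50) and Il6st (0.77). It was negative for Nptx1 (-4.58), Gzmk (-2.70), Tead4 (-2.27), Kcne3 (-2.17), Coq8a (-2.15), Ankrd37 (-1.66) and Ube2c (-1.02). With MEKi alone Adamts5, Il6st and Ankrd37 of these rose and Ube2c, Mrc1, Stab1, Selenop and Nptx1 fell. The values of Clec3b, Tnxb, Mbp, Apol11b and Pi16 rest on background signals and give no size.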

How the results depend on the processing

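The count of 3525 probe sets changed with MEKi moved by more than 1.5 times in 6 settings. It was 6101 among probe sets with a mean of at least 4, 5317 with the adipocyte covariate, 1267 with an intensity trend and robust moderation, 46 within the lower and 9 within the higher range of tumour numbers, and 0 with the replicate number as a block (limma, 8083 at an unadjusted p under 0.05). Fewer arrays enter the fits within a range. Over the fits without 1 array it lay between 1679 and 3326. The replicate block has no basis in the samples, since the deviations of same-numbered tumours correlated at -0.307, -0.071, 0.198, 0.037 and -0.032. Quantile normalization (3705), cyclic loess (3731), the floor (3294), 18 arrays (3626) and the range block (2732) moved it less. The difference of effects (1191) was 1883 with the minimum mean and 618 to 1431 without 1 array. MEKi/CD40 against MEKi (1127) was 1723 with quantile normalization, 2882 with the minimum mean, 10 with the MEKi tumours of the lower range and 29 to 850 without 1 array.

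Of 86 called genes among the 116 named from the fits, 70 were called in all 10 fits without 1 array, 83 were called with the range block and 79 with the adipocyte covariate. No direction was reversed. List medians stayed within the spread between tumours in 945 settings and moved in 42. Values below 3 limit what can be said of dim genes such as Foxp3 and Nos2.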
